A study of Mus musculus with 15 samples.

Results

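The genes described here are the numbered mouse Zfp genes, protein-coding genes whose symbol is Zfp followed by digits only, without Zfp36, which encodes an mRNA decay factor. They were chosen by measured H3K4me3: a gene was included when at least 2 of 3 H3K4me3 libraries had a peak within 1000 bp of an end of its RefSeq span (GRCm38.p6, the assembly of mm10). That held for 252 of 366 numbered Zfp genes, against 10106 of 21887 protein-coding genes (46.2%); because H3K4me3 chose the genes, these shares are a description. CUT&Tag, in which an antibody brings a transposase to its target so that the DNA beside it is cut and tagged, was applied to HPC-7 cells, an early haematopoietic mouse line made from embryonic stem cells, with about 150000 cells in each reaction. Control cells, labelled wild type in their genotype and shLUC in their descriptions, gave H3K4me3, YY1 and SMC3 libraries, and shYY1 cells, in which an shRNA targets YY1, gave SMC3 libraries. There were 3 libraries in each of the 4 groups, called biological replicates in the labels' protocol. All groups share the 1 cell line. How far YY1 fell in shYY1 cells is not given by these files, and the 3 IgG libraries were not analysed here.

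Most Zfp genes encode proteins with tandem C2H2 zinc fingers, in which a zinc ion holds each short finger in a shape that reads DNA. Many of them also carry a KRAB domain, which recruits the corepressor TRIM28 and through it the histone methyltransferase SETDB1 and heterochromatin proteins, and they are known for silencing retroelements and guarding imprinted loci. Such genes arose by repeated duplication and often lie in clusters. H3K4me3 marks active promoters, YY1 is itself a C2H2 zinc finger transcription factor that binds near transcription starts at sequences with a GCCAT core, and SMC3 is a subunit of the cohesin ring, which holds sister chromatids together and shapes chromatin loops. Which of the encoded proteins hold a KRAB domain was not analysed here.

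The deposited lists gave the position, length and summit of each peak, without height, score or read count. H3K4me3 lists held 16763 to 17895 peaks, YY1 lists 3750 to 10699, control SMC3 lists 2061 to 4595 and shYY1 SMC3 lists 2631 to 3213, and replicate 3 had the fewest peaks in the YY1 group and in the control SMC3 group. Sequencing depth is unknown, so the absence of a peak means that none was called, and a called peak cannot tell stronger binding per cell from binding in more cells. Abcam is named in the description of replicate 1 of SMC3 in each arm and of no other SMC3 library. Of 10 early haematopoietic marker genes, 7 had H3K4me3 at an end (Kit, Tal1, Runx1, Spi1, Fli1, Lyl1 and Myb), and of 10 markers of pluripotent, liver, muscle, nerve, pancreas, gut and lymphoid cells none had. For Gata2, Lmo2 and Erg no peak was found within 1000 bp of an end of the span.

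Promoter sequences of 6 members with YY1 in 3 of 3 libraries are shown first, because each holds the YY1 motif GCCATNTT close to its annotated start. Each runs from 120 bases before to 30 bases after the RefSeq start (GRCm38.p6), written in the direction of transcription, with motif bases in capitals. Zfp868 (chr8:69625519-69625668, minus strand) and Zfp866 (chr8:69774882-69775031, minus strand) are from 1 cluster of chromosome 8 and also had SMC3 in at least 5 of 6 libraries. Zfp961 (chr8:71950946-71951095, plus strand), Zfp68 (chr5:138619714-138619863, minus strand), Zfp617 (chr8:71922705-71922854, plus strand) and Zfp472 (chr17:32965711-32965860, plus strand) had SMC3 in at most 1 of 6.
Zfp868: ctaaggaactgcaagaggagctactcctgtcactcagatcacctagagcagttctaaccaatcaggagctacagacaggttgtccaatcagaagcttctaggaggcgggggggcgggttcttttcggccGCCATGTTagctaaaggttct
Zfp866: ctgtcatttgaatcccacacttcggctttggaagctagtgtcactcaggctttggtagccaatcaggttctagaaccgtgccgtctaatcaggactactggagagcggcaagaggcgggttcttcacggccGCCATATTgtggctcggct
Zfp961: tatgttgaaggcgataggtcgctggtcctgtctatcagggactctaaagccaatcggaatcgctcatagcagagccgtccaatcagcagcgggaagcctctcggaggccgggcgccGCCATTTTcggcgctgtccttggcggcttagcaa
Zfp68: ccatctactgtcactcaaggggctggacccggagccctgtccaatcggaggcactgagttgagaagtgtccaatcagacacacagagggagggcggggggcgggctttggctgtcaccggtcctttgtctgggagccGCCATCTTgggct
Zfp617: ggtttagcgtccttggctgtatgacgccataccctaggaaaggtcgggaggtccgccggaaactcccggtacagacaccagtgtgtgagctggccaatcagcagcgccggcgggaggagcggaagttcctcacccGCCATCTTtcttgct
Zfp472: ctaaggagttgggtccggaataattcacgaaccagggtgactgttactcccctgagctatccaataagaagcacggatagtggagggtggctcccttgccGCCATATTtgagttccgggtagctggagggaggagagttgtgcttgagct

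The next sequences are from members without this motif in the window. Zfp143 (chr7:110061582-110061731, plus strand) and Zfp687 (chr3:95015428-95015577, minus strand) had YY1 in 3 of 3 and SMC3 in 6 of 6 libraries, whereas Zfp467 (chr6:48445061-48445210, minus strand) and Zfp629 (chr7:127615243-127615392, minus strand) had neither in any library.
Zfp143: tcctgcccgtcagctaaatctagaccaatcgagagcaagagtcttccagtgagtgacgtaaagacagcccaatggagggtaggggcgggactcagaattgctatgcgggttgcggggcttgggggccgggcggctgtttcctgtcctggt
Zfp687: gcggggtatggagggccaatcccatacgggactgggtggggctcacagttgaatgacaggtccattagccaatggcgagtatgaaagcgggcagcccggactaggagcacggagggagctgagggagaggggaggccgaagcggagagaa
Zfp467: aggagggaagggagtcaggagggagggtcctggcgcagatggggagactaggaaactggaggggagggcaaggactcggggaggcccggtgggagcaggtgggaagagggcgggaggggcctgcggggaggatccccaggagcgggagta
Zfp629: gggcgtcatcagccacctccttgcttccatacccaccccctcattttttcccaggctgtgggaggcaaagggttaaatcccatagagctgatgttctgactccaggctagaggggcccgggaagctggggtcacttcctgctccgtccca
All of these were chosen after their values had been seen, as examples of the combinations found.

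Over all members the motif, searched on both strands of the 300 bases from 250 before to 50 after the start nearest the H3K4me3 end, went with the number of YY1 libraries. A window was found for 198 of the 252 members, and 29 of them (14.6%) held the motif, against 736 of 7395 other genes with H3K4me3 (9.95%) and 6.37% of all 21263 promoter windows of protein-coding genes. None of the 45 members with YY1 in 0 libraries held it, 3 of 26 with YY1 in 1 library, 9 of 62 in 2 and 17 of 65 (26.2%) in 3. The same order was found at the other genes, with 2.91, 8.17, 9.92 and 15.6%. Of the 31 matches at members, 17 began before the annotated start and 14 at or after it, and the median distance from a match to the YY1 summit was 96.0 bp, with 9 matches within 50 bp. A match is a string of letters and not a measured binding site.

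Over all members, whatever their YY1, the motif was found in 6 of 41 windows (14.6%) with reproducible control SMC3 and in 23 of 157 (14.6%) without. Other genes gave 10.5 and 9.7%. Among members with YY1 in 3 of 3 libraries, the motif was found in 7 of 20 windows (35.0%) where control SMC3 was called in 0 libraries and in 2 of 16 (12.5%) where SMC3 was called in 6 of 6. Other genes gave 27.1% and 11.5% for the same classes. A second string, the CCAAT box (CCAAT on either strand), which is the binding site of the factor NF-Y, was searched after the sequences above had been seen. It occurred in 101 of 198 member windows (51.0%), in 39.6% of those of other genes with H3K4me3 and in 38.2% of all promoter windows. Its share at members was 55.4% where YY1 was called in 3 libraries and 51.1% where it was called in 0, and at other genes 46.4 and 31.5%. At least 2 boxes were found in 23.1 and 8.89% of these member windows, and in 22.4 and 8.96% at other genes.

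YY1 was found at members at a share close to that of other genes with H3K4me3. A YY1 peak in at least 2 of 3 libraries, within 1000 bp of an end that itself carried H3K4me3, was found at 153 of 252 members (60.7%), where all 10106 genes with H3K4me3 gave 61.0%. Without YY1 replicate 1 or 2, where both remaining libraries had to have a peak, 82 and 79 members were left, and without replicate 3, which had the fewest peaks, 150. By library the members' share was 62.3, 71.0 and 32.5%, and that of the 9854 other genes 63.5, 71.0 and 32.1%. The differences were -1.24, 0.0048 and 0.48 percentage points, with a mean of -0.25 ± 0.89 (SD, n = 3), so members lay below the other genes in 1 library and above them in the other two. YY1 was called in 3 libraries at 79 members (31.3%; all genes 31.4%), in 2 at 74, in 1 at 33 and in 0 at 66 (26.2%; all genes 25.8%).

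SMC3 was found at members less often than at other genes with H3K4me3 in every library, but the gap was under 1 percentage point in control SMC3 replicate 3. Of the members, 54 had control SMC3 in at least 2 of 3 libraries (21.4%; all genes 29.7%). For shYY1 SMC3 the number was 42 (16.7%; all genes 22.6%). In the control libraries 67, 72 and 41 members had a peak (26.6, 28.6 and 16.3%), and other genes gave 35.1, 36.2 and 16.7%, which are differences of -8.52, -7.63 and -0.44 points. In the shYY1 libraries 38, 50 and 46 members had a peak (15.1, 19.8 and 18.3%) against 22.1, 25.1 and 24.5%, differences of -7.03, -5.26 and -6.20 points. Replicate 3 is the shortest control list, and it weighs on the reproducible share: the difference in that share, -8.51 points with all libraries, was -1.63 without control SMC3 replicate 1 and -1.65 without replicate 2, where both remaining libraries had to have a peak, and -9.92 without replicate 3. For shYY1 SMC3 the difference was -6.13 points, and -6.16 to -4.90 with 1 shYY1 replicate left out. No test was run for these shares, since the members were chosen with results known.

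**Figure D1:**
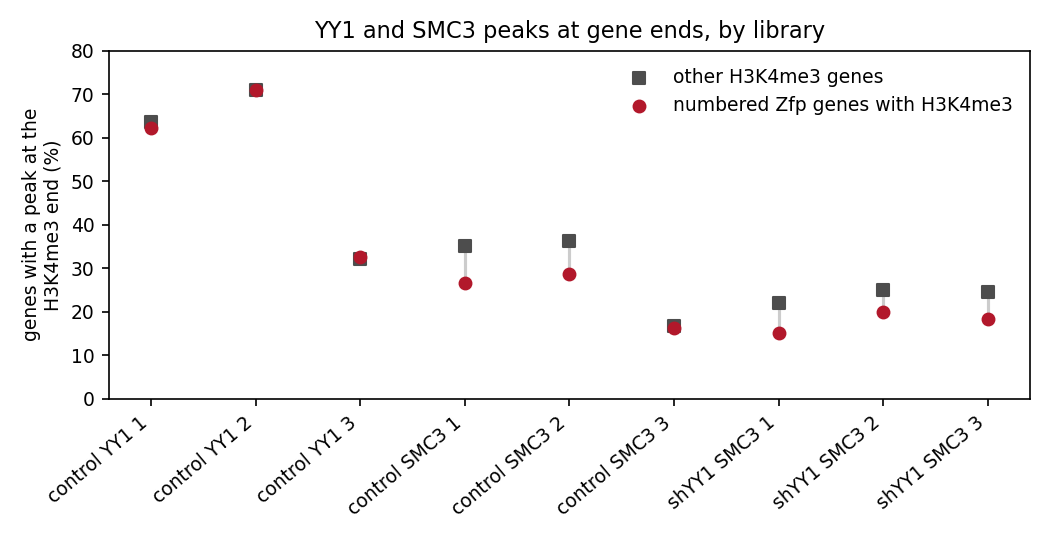
Percent of genes with a peak at the H3K4me3 end (y axis) in each YY1 and SMC3 library (x axis), for the 252 numbered Zfp genes with H3K4me3 (circles) and the 9854 other genes with H3K4me3 (squares). The symbols lie together for YY1, and the circles lie below the squares for SMC3 except in control SMC3 replicate 3, where they nearly meet at 16.3 and 16.7%.

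SMC3 at members went with YY1. Reproducible control SMC3 was found at 0 of 66 members with YY1 in 0 libraries, 0 of 33 in 1, 10 of 74 (13.5%) in 2 and 44 of 79 (55.7%) in 3. At other genes the same classes gave 0.236, 3.86, 26.7 and 68.3%, so members lay below them where YY1 was called in 2 or 3 libraries. In the class of 3 libraries the gap varied with H3K4me3 length, as given below. In the classes of 0 and 1 libraries the shares at other genes were too low for 0 of 66 and 0 of 33 members to show a difference. For shYY1 SMC3 members had 0, 0, 9.46 and 44.3%, and other genes 0.0786, 1.31, 16.2 and 56.7%. Of the 66 members without YY1, only Zfp456, Zfp58 and Zfp85 had any SMC3 peak, in 1, 2 and 1 of 6 libraries.

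**Figure D2:**
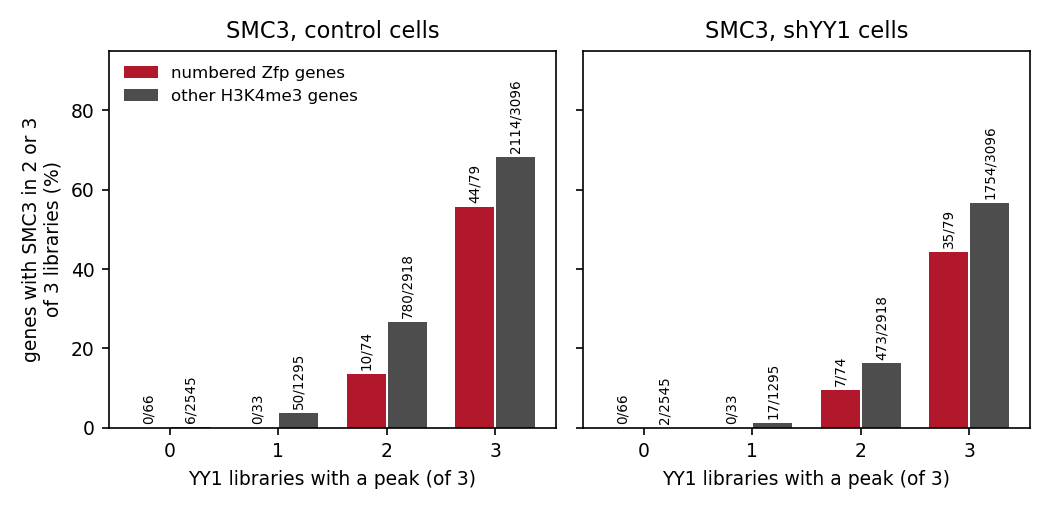
Percent of genes with SMC3 in 2 or 3 of 3 libraries (y axis) by the number of YY1 libraries with a peak (x axis), in control cells (left) and shYY1 cells (right), for numbered Zfp genes and other genes with H3K4me3; counts stand on the bars. Shares rise with the number of YY1 libraries, and the Zfp bar is the lower of each pair at 2 and 3 YY1 libraries. At 0 and 1 YY1 libraries it stands at 0, where the other bar is also too low for a comparison.

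H3K4me3 length and shared ends differed beside SMC3, and their part in its lower share was not tested. H3K4me3 peaks were shorter at members: the median of the longest peak at the end was 958, 876.5 and 911.5 bp in the 3 libraries, against 1116, 978 and 1011 bp at other genes. When all genes with H3K4me3 were divided into parts of equal size by mean H3K4me3 length, at 890 and 1186 bp, control SMC3 was found at 17.8% of members and 17.1% of other genes in the shortest part. It was found at 20.9 and 30.1% in the middle part and at 31.3 and 42.4% in the longest. For shYY1 SMC3 the parts gave 15.3, 11.6 and 29.2% at members and 12.6, 22.6 and 32.9% at other genes. In the shortest part members thus did not lie below other genes in either arm. YY1 was found at 50.8 and 42.5% in the shortest part, 67.4 and 65.2% in the middle, and was lower at members in the longest. Among genes with YY1 in 3 libraries, control SMC3 gave 61.5 and 62.9% in the shortest part and 55.6 and 64.9% in the middle. In the longest part the gap was wider. Another protein-coding gene ended within 1000 bp of the H3K4me3 end at 36 members (14.3%; all genes 29.0%), and in 14 of these cases the neighbour was itself a numbered Zfp gene. At ends without such a neighbour, control SMC3 was found at 37 of 216 members (17.1%) and 27.0% of other genes, and YY1 at 56.9 and 55.4%. At shared ends SMC3 was found at 17 of 36 members (47.2%) and 36.9% of other genes, where a peak counts for both neighbours.

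Called peaks of members sat further downstream. The strand was known for 212 members, of which 209 carried H3K4me3 at the 5′ end only (98.6%; other genes 90.3%), Zfp879 at the 3′ end only, and Zfp53 and Zfp78 at both. Relative to the annotated start, the median YY1 summit lay 4.0, 34.0 and 8.0 bp downstream at members and -51.0, -36.0 and -64.0 bp, that is upstream, at other genes. Control SMC3 summits had medians of -6.0, 4.0 and -16.0 bp at members and -78.0, -80.0 and -103 bp at other genes. In shYY1 cells the medians were 47.0, -6.0 and -8.5 bp against -85.5, -88.0 and -89.0 bp. Between 27 and 55 SMC3 peaks at members gave each median. The member median was the more downstream in all 12 libraries, H3K4me3 included (143, 112 and 76.0 bp against 49.0, 33.0 and 24.0 bp), while the quartile ranges of the groups overlapped. With shared ends left out, control SMC3 medians at members ran up to 10.5 bp and those at other genes from -102 to -75.5 bp. In shYY1 cells they were -6.0, 1.5 and -11.0 bp against -84.0, -86.0 and -88.0 bp.

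**Figure D3:**
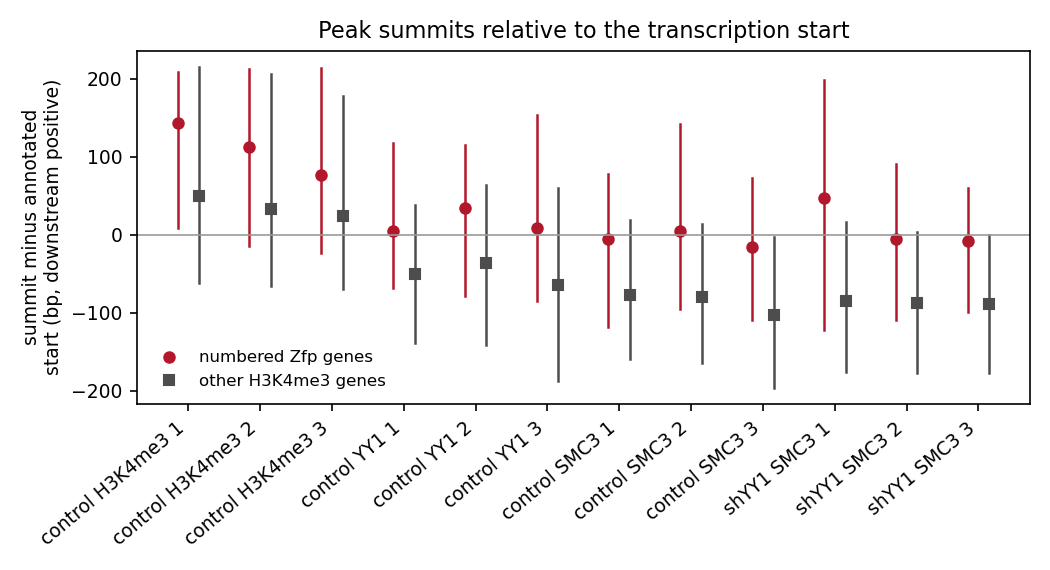
Median distance of the peak summit from the annotated transcription start (y axis, bp, downstream positive) in each library (x axis), with lines from the lower to the upper quartile, for numbered Zfp genes (circles) and other genes with H3K4me3 (squares). Every circle lies above its square, and the lines overlap.

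SMC3 differed between the arms at members by less than the spread of the control libraries. The percent of members with an SMC3 peak was 23.8 ± 6.6 in control and 17.7 ± 2.4 in shYY1 (SD, n = 3), a difference of -6.08 points. Control replicates 1 and 2 lay above all shYY1 libraries, and control replicate 3 lay among them. Over all genes with H3K4me3 the values were 29.2 ± 10.8 and 23.7 ± 1.6%, a difference of -5.47 points (exact two-sided permutation p = 0.4, n = 3; the smallest possible p is 0.1). Without control SMC3 replicate 3 the differences were -9.85 points at members and -11.7 over all genes (exact permutation p = 0.1, again the smallest possible). Without control replicate 1 they were -4.70 and -2.62 points (exact permutation p = 0.8 over all genes). Without control replicate 2 they were -3.70 and -2.06 points (exact permutation p = 0.8 over all genes), so the size depended on the control library left out. When each SMC3 library was cut to its 2061 longest peaks, they were -0.79 and -0.27. With replicate 1 of both arms left out, the libraries named with Abcam, they were -3.37 and -1.72 points.

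At single members, 50 of 252 had SMC3 in more control than shYY1 libraries (19.8%; all genes 19.2%) and 12 in more shYY1 than control libraries (4.76%; all genes 7.2%). Control SMC3 was reproducible and shYY1 SMC3 was not at 15 members (5.95%; all genes 8.66%), and the reverse held at 3 (1.19%; all genes 1.57%), namely Zfp81, Zfp386 and Zfp950. The only member with SMC3 in 3 control and 0 shYY1 libraries (all genes 0.287%) was Zfp219 (chr14:52006075-52021140). Its SMC3 peaks measured 221, 129 and 206 bp in control cells, beside YY1 peaks of 236 and 433 bp in 2 libraries and H3K4me3 peaks of 1410, 1417 and 1348 bp. No member had SMC3 in 3 shYY1 and 0 control libraries (all genes 0.0%). Zfp81 came nearest, with 1 control peak of 289 bp and shYY1 peaks of 308, 187 and 224 bp.

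SMC3 was called in 6 of 6 libraries at 21 members (8.33%; all genes 11.7%) and in 0 of 6 at 153 (60.7%; all genes 54.8%). The 21 were Zfp13, Zfp51, Zfp54, Zfp78, Zfp91, Zfp142, Zfp143, Zfp277, Zfp281, Zfp367, Zfp438, Zfp444, Zfp597, Zfp619, Zfp639, Zfp654, Zfp687, Zfp703, Zfp868, Zfp963 and Zfp983. The longest SMC3 peaks among them were at Zfp438, with 644, 566 and 485 bp in control and 461, 585 and 481 bp in shYY1 cells. At Zfp78 (chr7:6362809-6382606), which carries H3K4me3 at both ends and whose 3′ end lies within 1000 bp of Zfp28, the peaks measured 544, 532 and 515 bp in control and 477, 505 and 520 bp in shYY1 cells. In both genes the arms overlapped in length. Zfp868, Zfp13, Zfp367 and Zfp91 followed in mean SMC3 length. At Zfp91, whose end lies within 1000 bp of Lpxn, control peaks measured 297, 296 and 271 bp. The shYY1 peaks there measured 574, 339 and 306 bp, each longer than every control peak. The reverse held at Zfp54, Zfp277 and Zfp639, where each control peak was longer than each shYY1 peak. Zfp277, for example, had 244, 283 and 242 bp in control and 174, 168 and 225 bp in shYY1 cells. No test was run on these lengths. How many of all genes with SMC3 in 6 of 6 libraries separate in this way was not counted, so nothing particular to these members is read from it.

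Members with H3K4me3 but neither YY1 nor SMC3 in any library numbered 63 (25%; all genes 25.3%). Long H3K4me3 did not go with YY1 at each of them. Zfp467 (chr6:48427692-48445992), whose end lies within 1000 bp of an end of Sspo, had H3K4me3 peaks of 2249, 2107 and 2114 bp, the longest mean of any member, and no YY1 or SMC3 peak. Zfp276, Zfp451, Zfp629 and Zfp369 followed in mean length among members without either target. Zfp687 (chr3:94994674-95015948), with nearly the same H3K4me3 length as Zfp467 (2396, 2085 and 1912 bp), had YY1 peaks of 1069, 1130 and 715 bp and SMC3 in all 6 libraries. Zfp668 and Zfp646, which share an end, Zfp148 and Zfp622 completed the 6 members with the longest H3K4me3.

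Long YY1 peaks did not go with SMC3 at every member. The longest YY1 peaks were at Zfp524 (chr7:5015216-5018493), with 1488, 1494 and 1450 bp, where SMC3 measured 242, 260 and 240 bp in control cells and 300 and 209 bp in 2 shYY1 libraries. Zfp524 shares its end with Fiz1. Zfp687 followed, and then Zfp335 (chr2:164891882-164912585), with YY1 peaks of 903, 1120 and 828 bp and no SMC3 peak in any of the 6 libraries. Zfp143, Zfp91 and Zfp788 came next. Zfp143, whose human counterpart is a promoter-bound factor, had YY1 peaks of 895, 1009 and 793 bp. Its SMC3 peaks measured 309, 310 and 222 bp in control and 292, 252 and 242 bp in shYY1 cells.

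Members with known roles were taken from 5 lists. Their counts are read beside the shares of all genes, which were 46.2% for H3K4me3 and, among genes with H3K4me3, 61.0% for YY1, 29.7% for control SMC3 and 22.6% for shYY1 SMC3. The lists are short, and nothing particular to them is read from the counts. Of 10 promoter and chromatin regulators, all carried H3K4me3, 9 had YY1, 5 had control SMC3 and 4 had shYY1 SMC3. Zfp143, Zfp281, a repressor of pluripotency genes, and Zfp91, an E3 ubiquitin ligase of NF-kappaB signalling, had SMC3 in all 6 libraries. Zfp263 had it in 2 control and 3 shYY1 libraries. Zfp384 had it in 2 control libraries (194 and 188 bp) and in 0 shYY1 libraries. Zfp148, Zfp335, Zfp410, an activator of the chromatin remodeller gene Chd4, and Zfp740 had YY1 without any SMC3 peak. Zfp407 had YY1 in 1 library.

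Of 8 genes of retroelement and imprint silencing, 5 carried H3K4me3 and all 5 had YY1 (all genes 61.0%). Control SMC3 (all genes 29.7%) and shYY1 SMC3 (all genes 22.6%) were each reproducible at 1, Zfp809, which silences murine leukaemia viruses in embryonic cells. Zfp809 (chr9:22225667-22254117) had YY1 peaks of 421, 534 and 289 bp and SMC3 peaks of 255, 240 and 184 bp in control and of 307 and 368 bp in 2 shYY1 libraries. Zfp30, Zfp568, Zfp932 and Zfp961 had YY1 without reproducible SMC3. The imprinting factors Zfp57 and Zfp445, and Zfp708, had no H3K4me3 peak within 1000 bp of an end, although each had one inside its span in 3 of 3 libraries.

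Genes for RNA handling, SUMO conjugation and cell division all carried H3K4me3 (7 of 7), 5 had YY1, and Zfp318 alone had reproducible SMC3, in 2 libraries of each arm. Zfp622 and Zfp830 had an SMC3 peak in control replicate 1 only, of 128 and 288 bp. Zfp207, a spindle assembly protein, had YY1 peaks of 358, 437 and 310 bp and no SMC3 peak, and Zfp106 and Zfp451, a SUMO ligase, had neither target. In the list of blood and signalling genes 4 of 6 carried H3K4me3. Zfp521, a regulator of haematopoietic progenitors, had YY1 in 3 libraries, SMC3 in 2 control and 3 shYY1 libraries, and short H3K4me3 peaks of 368, 372 and 369 bp. Zfp292 had YY1 in 2 libraries, and Zfp608 and Zfp609 had neither YY1 nor SMC3. Of 5 genes of the early embryo and pluripotency only Zfp296 carried H3K4me3 at an end, with no YY1 or SMC3 peak there. Zfp57 and Zfp462 had H3K4me3 inside the span in 3 of 3 libraries, and Zfp462 also had YY1 there in 2. Zfp42, a marker of pluripotent cells, and Zfp819 had no H3K4me3 peak at the ends or inside the span in any library.

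The genes of the KRAB corepressor pathway were counted beside the members. Of 22 such genes, 19 carried H3K4me3, 13 had YY1, 7 had SMC3 in control cells and 5 in shYY1 cells. The shares of all genes with H3K4me3 were 61.0, 29.7 and 22.6% for the last 3 counts. Trim28, the corepressor itself, had YY1 peaks of 445, 443 and 260 bp and SMC3 peaks of 268, 334 and 169 bp in control and 305, 157 and 135 bp in shYY1 cells. Cbx3, which encodes a heterochromatin protein, Hdac2, a histone deacetylase, and Morc3 likewise had SMC3 in 6 of 6 libraries. Setdb1, the histone methyltransferase of the pathway, had YY1 in 2 libraries and no SMC3 peak.

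Other zinc finger families were set beside the members only for their shares. Of the 35 numbered Zbtb genes, which encode zinc finger proteins with a BTB domain, 32 carried H3K4me3, and of these 22 had YY1 (68.8%), 12 SMC3 in control cells (37.5%) and 11 in shYY1 cells (34.4%). Of 22 numbered Zscan and Zkscan genes, whose proteins carry a SCAN domain, 15 carried H3K4me3, 7 of them with YY1 (46.7%), 3 with control SMC3 and 2 with shYY1 SMC3 (13.3%). All genes with H3K4me3 gave 61.0% for YY1, 29.7% for control and 22.6% for shYY1 SMC3, and no test was run between the families.

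Numbered Zfp genes whose spans lay within 250 kb of the next one were joined, and a run of at least 3 was called a cluster; 28 clusters held 187 numbered Zfp genes, 134 of them members. H3K4me3 was found at 71.7% of numbered Zfp genes in clusters and 65.9% outside. Members in clusters and outside had YY1 at 60.4 and 61.0%, SMC3 in control cells at 19.4 and 23.7%, SMC3 in shYY1 cells at 13.4 and 20.3%, and SMC3 in 6 of 6 libraries at 5.97 and 11.0%. The 26 clustered members with control SMC3 lay in 10 clusters, and the other 18 clusters had none. Of these 18, 1 had no member at all, and most held 3 members or fewer. Among the larger ones, the chromosome 17 cluster from Zfp871 to Zfp414 and the chromosome 7 cluster from Zfp553 to Zfp646 held 10 members each. Whether 18 differs from the number to be had at the share of all members, 21.4%, was not tested. Cluster genes can be near-identical copies, and the treatment of reads that fit several copies was not given in the sources used here, so peaks at such copies are uncertain.

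Clusters differed in how many genes carried H3K4me3 at an annotated end. All numbered Zfp genes of 7 clusters did, among them 10 of 10 in the chromosome 7 cluster from Zfp553 to Zfp646 (chr7:127233061-127885996) and 7 of 7 in the chromosome 6 cluster (chr6:47815536-48086986). By contrast, 2 of 12 did in a chromosome 4 cluster (chr4:146449030-147849126) and 2 of 12 in another cluster of chromosome 7 (chr7:24081877-24587840). Of the 10 other genes of each, 1 in the chromosome 4 cluster and 5 in the chromosome 7 cluster had H3K4me3 inside the span in at least 2 libraries. By chromosome, members numbered 65 of 89 on chromosome 7, 34 of 41 on chromosome 17, 23 of 32 on chromosome 13 and 8 of 27 on chromosome 4.

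**Figure D4:**
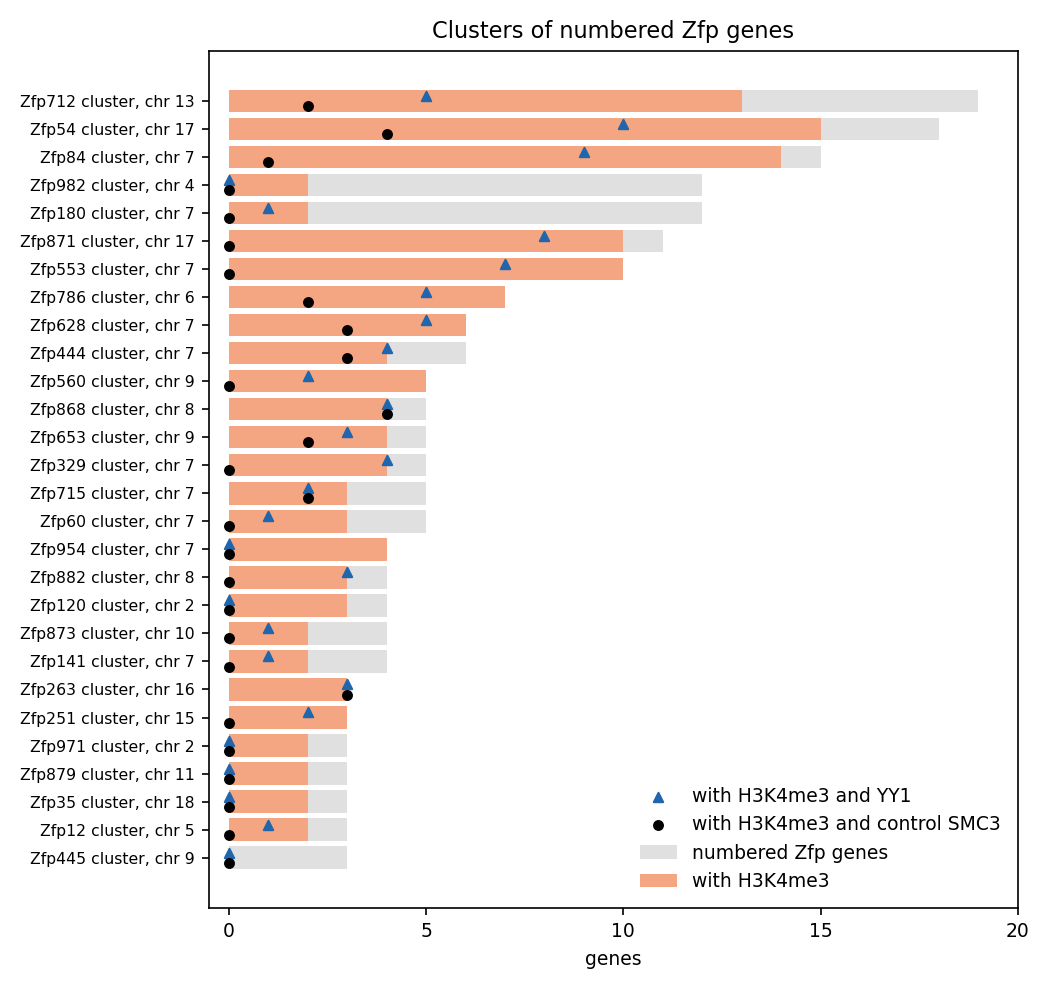
Number of genes (x axis) in each of 28 clusters of numbered Zfp genes (y axis, named by their first gene with H3K4me3, or first gene where none has it): all numbered Zfp genes (grey bar), those with H3K4me3 (orange bar), those also with YY1 (triangle) and with control SMC3 (dot). The dot stands at 0 in 18 clusters, 1 of which has no gene with H3K4me3. It reaches the end of the orange bar in the Zfp868 and Zfp263 clusters.

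Clusters also differed in their SMC3 counts, which mostly rest on few members each and were not tested. In the chromosome 8 cluster of Zfp868, Zfp869, Zfp963 and Zfp866 (chr8:69610654-69774911) all 4 members had YY1 in 3 libraries and reproducible control SMC3. The SMC3 peaks of Zfp868 measured 453, 410 and 377 bp in control and 335, 351 and 429 bp in shYY1 cells. In a second cluster of the same chromosome (chr8:71882068-71970333) Zfp882, Zfp617 and Zfp961 had YY1 in 3 libraries too, but SMC3 only at Zfp961, in 1 library. Mean H3K4me3 length was 559 to 902 bp at the 4 members of the first cluster and 917 to 1107 bp at the 3 of the second. In this pair the mark was thus longer where SMC3 was not reproducible. Mean YY1 length was 415 to 621 bp at the first 4, and 579 bp at Zfp882, 362 bp at Zfp617 and 338 bp at Zfp961. YY1 peaks at Zfp617 and Zfp961 were thus shorter than at all 4 members with SMC3, and those at Zfp882 lay among them. This pair of clusters was chosen after the values had been seen, and its order of H3K4me3 length is not that of all members. Over all members control SMC3 was found at 17.8, 20.9 and 31.3% in the parts with the shortest, middle and longest H3K4me3. On chromosome 16, Zfp263, Zfp174 and Zfp597 (chr16:3744099-3884377) had YY1 in 3 libraries and reproducible SMC3 in both arms.

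The cluster with the most members lay on chromosome 17 (chr17:21383707-22456689), with H3K4me3 at 15 of 18 numbered Zfp genes, YY1 at 10, and control and shYY1 SMC3 at 4 each. Counts for this and the next clusters are read beside the shares of all genes. These were 46.2% for H3K4me3 and, among genes with H3K4me3, 61.0% for YY1, 29.7% for control and 22.6% for shYY1 SMC3. SMC3 was called in 6 of 6 libraries at Zfp54, Zfp51 and Zfp983 and in 5 of 6 at Zfp53. At Zfp983 the SMC3 peaks measured 353, 368 and 394 bp in control and 373, 178 and 334 bp in shYY1 cells, and the YY1 peaks 478, 590 and 281 bp. Zfp53 carries H3K4me3 at both ends, 1 of them shared with Zfp52. Zfp51 and Zfp53 had YY1 in 2 libraries. Zfp52, Zfp948 and Zfp947 had neither target, and Zfp760 and Zfp994 had YY1 in 1 library. Zfp995 and the pair Zfp942 and Zfp943, which share an end, had YY1 in 2 libraries and no SMC3 peak. Zfp944 and Zfp758, which also share an end, had YY1 in 2 libraries and SMC3 in 1, and Zfp946 had SMC3 in 1 library of each arm. H3K4me3, which chose the members, was called in 3 of 3 libraries at all 15. In the chromosome 7 cluster of 14 members from Zfp84 to Zfp146 (chr7:29768552-30169775), 9 had YY1 and 1, Zfp74, control SMC3. Of the 10 members from Zfp553 to Zfp646, 7 had YY1 and 0 reproducible SMC3 in either arm.

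**Figure D5:**
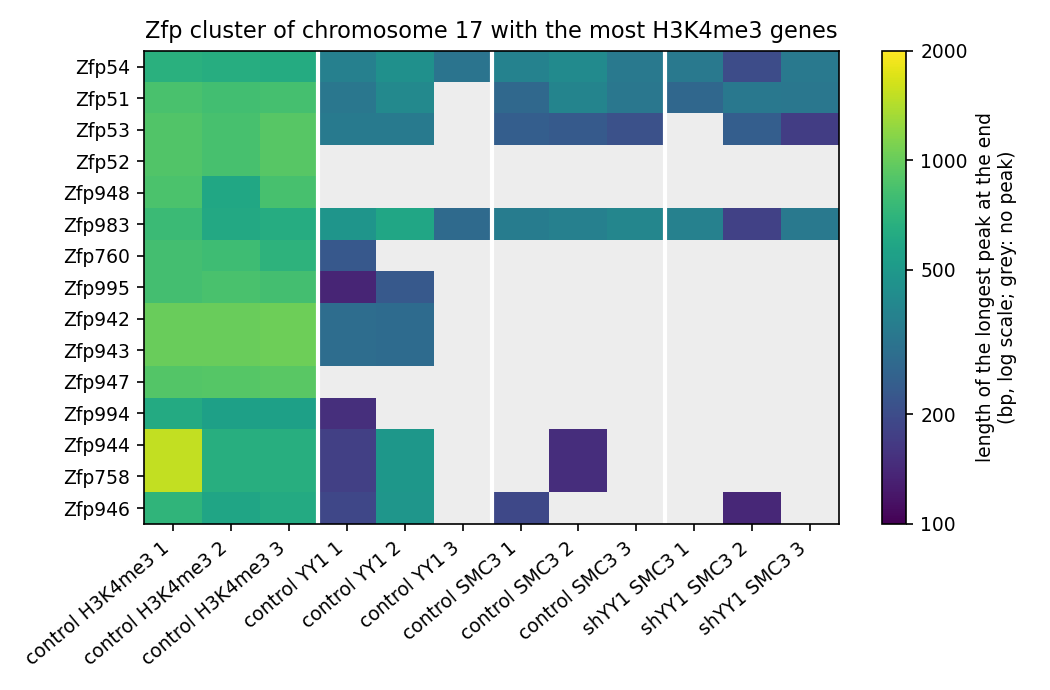
Length of the longest peak at the H3K4me3 end (color, bp, log scale; grey where no peak was called) in 12 libraries (x axis) for the 15 members of the chromosome 17 cluster in genomic order (y axis). H3K4me3 is called throughout, and SMC3 in at least 5 of 6 libraries at Zfp54, Zfp51, Zfp53 and Zfp983.

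The threshold of 2 H3K4me3 libraries left few genes near it. Only 3 members had H3K4me3 in 2 libraries, Zfp688 (832 and 860 bp), Zfp771 (1221 and 1190 bp) and Zfp970 (344 and 291 bp), and the other 249 had it in 3. Just outside, Zfp65 had 1 peak of 283 bp and Zfp964 1 peak of 243 bp. None of these 5 genes had a YY1 or SMC3 peak at an end.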

How the data were processed

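Of 15 CUT&Tag libraries, 12 had a peak list used here, with start, end and summit offset in base pairs as deposited by the authors and no score, height or count. MACS2 2.2.9.1, Bowtie2 2.5.1, cutadapt 4.5, Picard 3.1.1 and the build mm10 are named in the submitters' processing notes, and settings were not given in the sources used here. Starts were read as counted from 0 and are printed counted from 1.

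Gene spans and promoter windows came from RefSeq tables of GRCm38.p6. A promoter entry, which gives the strand, was found for 212 of 252 members; protein sequences were not used here. YY1 and SMC3 were counted within 1000 bp of ends that carried H3K4me3 in at least 2 of 3 libraries. A length is that of the longest peak at the end. Arms were compared by an exact two-sided permutation test over 20 assignments of 6 libraries. The test was checked on short made-up sets of numbers, and the counting of peaks at gene ends on planted peaks. Alternatives were a distance of 2500 bp, summits, 3 of 3 libraries, either end, annotated starts, unshared ends, each replicate left out, Abcam libraries left out, equal numbers of longest peaks (2061), a replicate block, and gaps of 100 and 500 kb. A sequence window was taken where an annotated start lay within 1000 bp of the H3K4me3 end. Calculations used Python 3.11.15.

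Members, lists and tests were chosen with earlier results of these data known. Named were members of the fixed lists and of the cluster with the most members, those with the longest peaks of each target, with SMC3 in 1 arm only, with neither target, and at the threshold; others are said to have been chosen afterwards. The planned counts of zinc fingers and KRAB motifs in proteins were not run.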

Additional observations from a re-analysis of the deposited data

How the results depend on the processing

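Of 121 recalculations under other settings, 101 were counted as unchanged. For counts this meant within 1.5 times, and for differences in share and the arm difference at members within the spread between libraries. For the arm difference over all genes with H3K4me3 it meant only the same sign. All 16 of its recalculations kept that sign, with values from -11.7 to -0.27 points. For the arm difference at members, -6.08 points, the allowed spread of 6.6 points was larger than the difference itself. That rule could hardly fail, and all 16 recalculations passed it, with values from -9.85 to -0.79 points. The number 101 includes both sets and says little about either arm difference. Recalculations of the differences in share were chosen after seeing the data. Requiring 3 of 3 libraries left 79 members with YY1, 33 with control SMC3 and 26 with shYY1 SMC3, and the differences in share from other genes with H3K4me3 became -2.34 points for control and -5.08 for shYY1 SMC3. The YY1 difference, -0.32 points, changed sign and was 1.15 at 2500 bp, 1.12 by summit and 1.59 at unshared ends, and with 1 library left out it ranged from -0.95 to 0.62 and the YY1 count from 79 to 153. The control SMC3 difference ranged from -9.92 to -1.63 with 1 library left out and was -1.63 without the Abcam libraries. The shYY1 SMC3 difference ranged from -6.22 to -4.90, and was -4.90 without the Abcam libraries, -7.26 at annotated starts and -3.46 with the 2061 longest peaks of each library, a setting that left 30 members with control SMC3. No setting turned the direction of either SMC3 difference. Gaps of 100 and 500 kb placed 119 and 155 members in clusters.

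Same-numbered SMC3 libraries of the arms did not deviate together (correlations of -0.051, 0.042 and -0.056 across genes, which are not independent replicates), so the numbers were not read as pairs. With the replicate block the difference over all genes with H3K4me3 was -5.47 points (exact permutation p = 0.5; the smallest possible is 0.25). Without peak heights or read depth, missing peaks cannot be told from weak ones, and list length limits every share. The planned counts of zinc fingers and KRAB motifs were not run, because no protein sequences were used here.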

Other observations

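The 114 numbered Zfp genes without reproducible H3K4me3 at an end had no reproducible YY1 or SMC3 peak at an end either. Inside their spans, however, 37 had H3K4me3 in at least 2 libraries, 19 had YY1, 10 had control SMC3 and 5 had shYY1 SMC3. Other protein-coding genes without H3K4me3 at an end were not counted in this way, so nothing particular to Zfp genes is read from these numbers. Zfp787, Zfp574 and Zfp831 had all 3 targets inside the span in every library of both arms, and Zfp446 had H3K4me3, YY1 and control SMC3 in 3 libraries each and shYY1 SMC3 in 0. Zfp217, an oncogene candidate in other tissues, had H3K4me3 in 3 libraries, YY1 in 2 and control SMC3 in 2. Whether these peaks mark starts inside the annotated spans was not tested. These genes were chosen after their values had been seen.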
